A study of Mus musculus with 12 samples.

Results

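The muscarinic and nicotinic acetylcholine receptor genes described here were the 10 genes *Chrm1*, *Chrm2*, *Chrm3*, *Chrm4*, *Chrna3*, *Chrna4*, *Chrna5*, *Chrna7*, *Chrnb2* and *Chrnb4*, taken by symbol from the 55418 genes of a count table of mouse brainstem RNA. They comprised 4 muscarinic and 6 nicotinic genes, and all 10 passed the filter on low counts in every comparison. Acetylcholine acts on muscarinic receptors, which signal through G proteins, and on nicotinic receptors, which are cation channels built from subunits around a pore. The products of *Chrm1* and *Chrm3* couple to Gq and phospholipase C, whereas those of *Chrm2* and *Chrm4* couple to Gi and lower cAMP. In the brainstem, cholinergic neurons of the pons and of the cranial motor nuclei use these receptors in arousal, breathing and autonomic control, and neonatal opioid withdrawal disturbs several of these functions.

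The 12 mice were outbred CFW pups of postnatal day 15 (P15), 6 given saline and 6 given morphine, with 3 females and 3 males in each treatment. The morphine mice had received 15 mg/kg subcutaneously 2 times daily from P1 to P14, and the saline mice had received saline. All brainstems (medulla and pons) were collected 16 h after the last injection, when the morphine mice were in spontaneous withdrawal. Each library came from 1 mouse, and the 12 libraries were sequenced together on 1 lane. Dams are in no label, so mice of 1 litter and mice of different litters cannot be told apart, and the extraction label speaks of spinal cords where the tissue label says brainstem.

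Libraries held 27850565 to 48097947 counts assigned to genes (median 33214511). The hindbrain markers were present in every library (*Slc6a5*, the glycine transporter of inhibitory hindbrain neurons, at 479 to 638 counts per 1000000 counts, CPM). The forebrain transcription factor gene *Emx1* stayed at or below 0.153 CPM. Other forebrain markers were present, since 5 markers of cortical neurons, *Emx1* among them, summed to 8.13 to 14.7 CPM. The sum of 5 markers of striatal neurons was 40.0 to 63.9 CPM. The part of forebrain cells in the receptor levels was not tested. The library labelled morphine male 6 held *Xist*, the X inactivation RNA, at 380 CPM, against 547 to 970 in the females and at most 2.71 in the other males. Saline male 3 stood apart in base composition. Across genes, its log2 level relative to the mean of the 12 libraries fell by 0.525 per 10 points of transcript GC content, whereas it rose by 0.430 and 0.548 in saline males 1 and 2 and lay between -0.32 and 0.26 in the other 9 libraries; this number is called the GC slope below. Changes of receptor genes given here that moved by over 1.5 times without saline male 3 or morphine male 6 are given with and without that mouse.

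By level per length, the receptor genes are given from the highest mean to the lowest. *Chrm2* had the highest level at 14.1 ± 2.28 CPM per kb of exon (SD, n = 12), followed by *Chrna4* at 13.4 ± 2.06 and *Chrnb2* at 8.30 ± 0.850, the subunit genes of the main heteromeric nicotinic receptor of the brain. *Chrm2* lay above *Chrna4* in 7 of the 12 libraries only, so the order of these neighbours did not exceed their spread. *Chrm3* reached 3.54 ± 0.372 CPM per kb and *Chrna7*, the subunit of the homomeric, calcium-permeable receptor, 1.93 ± 0.273, and each lay above the next gene in 12 of 12 libraries. *Chrna3* reached 1.01 ± 0.153 CPM per kb and lay above *Chrm4* (0.644 ± 0.338) in 11 of 12. *Chrm4* lay above *Chrna5* (0.459 ± 0.128) in 8 libraries, *Chrna5* above *Chrnb4* (0.324 ± 0.0968) in 10, and *Chrnb4* above *Chrm1* (0.241 ± 0.0629) in 9. The order was the same per kb of the longest transcript and with scaling by total counts. Against the 18608 genes tested, *Chrm2* lay above 82.7% by this level and *Chrm1* above 10.5%.

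**Figure D1:**
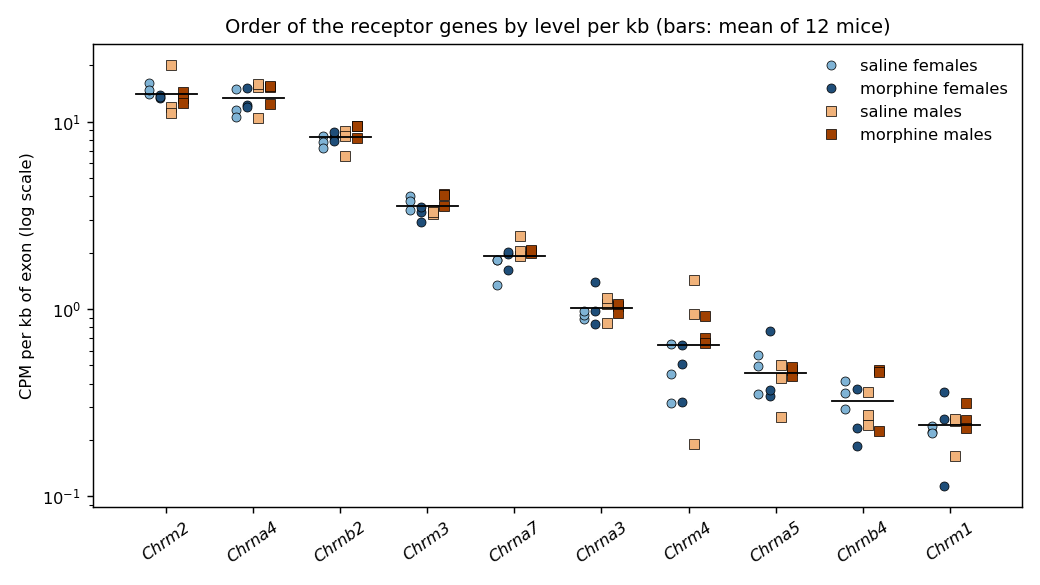
Level of each receptor gene in CPM per kb of exon (log scale) in the 12 mice, with circles for females and squares for males and a bar at the mean. The means fall from 14.1 for *Chrm2* to 0.241 for *Chrm1*, and the points of *Chrm4* spread widest, from 0.192 to 1.43.

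The spread over the 12 mice is given as a coefficient of variation, with the part that counting alone gives beside it as a scale, since separate outbred mice vary more than repeated counts of 1 library. *Chrm4* had the highest of the 10 genes at 52.5% (counting alone 20.7%), at 9 to 69 counts per library. It was 16.2% for *Chrm2* and 15.4% for *Chrna4* (counting alone 1.88% and 2.13%). *Chrnb2* and *Chrm3* had the lowest, at 10.2% and 10.5%. For *Chrm1* (24 to 81 counts), *Chrna5* (35 to 65) and *Chrnb4* (24 to 58), counting alone gives 14.4% to 16.3%, and these genes allowed only large changes to be seen.

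The effect of morphine on each receptor gene was tested in both sexes together with sex as a covariate, in females alone and in males alone. A differentially expressed (DE) gene had an unadjusted *p* below 0.05 by edgeR's quasi-likelihood test and an absolute log2 fold change (log2FC) above 0.26. With the sexes combined, 0 of the 10 receptor genes were DE (1.19% of all genes tested were), and 0 of 10 had treatment groups that did not overlap (0.043% of all genes). In females, 0 of 10 were DE (1.81% of all genes) and the groups did not overlap for 1, *Chrm2* (5.65% of all genes). In males, 0 of 10 were DE (2.99% of all genes) and the groups did not overlap for 1, *Chrm3* (9.1% of all genes). The unadjusted *p* of edgeR's test was below 0.05 for 0 of 10 genes in each of these 3 comparisons, and DESeq2 and edgeR's exactTest also called 0 (DESeq2 1.2%, 1.78% and 2.94% of all genes; exactTest 1.31%, 2% and 2.98%). The treatment by sex interaction (how far the male change exceeded the female one) was past the DE rule for 1 of 10, *Chrm3* (2.94% of all genes), and DESeq2 (3.48%) also called that gene. Between females and males, with treatment as a covariate, 0 of 10 were DE (3.94% of all genes), with 0 at an unadjusted *p* below 0.05, while DESeq2 (5.86% of all genes) and edgeR's exactTest (6.44%) each called 1, *Chrm4*. The median log2FC of the 10 genes was 0.07 with the sexes combined, 0.06 in females and 0.11 in males, beside -0.02, -0.01 and -0.06 over all genes tested. After Benjamini-Hochberg adjustment of edgeR's test over all genes, no receptor gene passed 0.05 in any of the 5 comparisons. Bulk tissue was measured, so fewer cells of a type and less RNA per cell cannot be told apart.

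**Figure D2:**
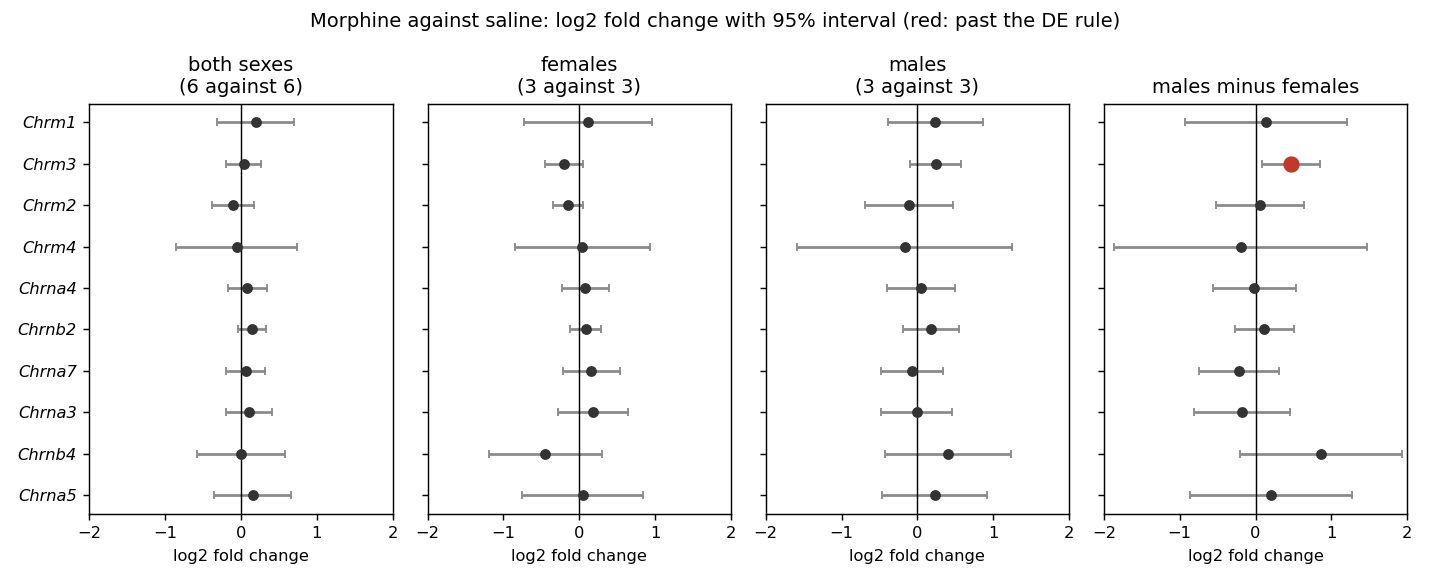
Log2FC of each receptor gene in morphine against saline mice with its 95% interval, with the sexes combined, in females, in males, and as the change in males minus that in females (edgeR). Every interval crosses 0 except that of *Chrm3* in the last panel, which runs from 0.08 to 0.84 and is drawn in red.

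*Chrm3*, the Gq-coupled receptor gene of smooth muscle, glands and many central neurons, lies on chr13:9875486-10360847 (minus strand, GRCm38) and had 596 to 915 counts per library. Its level was 25.0, 23.6 and 21.2 CPM in the saline females and 20.7, 18.3 and 21.9 CPM in the morphine females. It was 21.2, 20.0 and 20.7 CPM in the saline males and 25.7, 22.3 and 25.4 CPM in the morphine males. Every morphine male lay above every saline male, whereas morphine females lay lower on average, with 1 above the lowest saline female. The log2FC was -0.20 in females (SE 0.11, adjusted *p* = 1, edgeR) and 0.24 in males (SE 0.14, adjusted *p* = 1, edgeR), and neither was DE. With the sexes combined these opposite values left 0.04 (95% interval -0.19 to 0.26), which was -0.0031 without saline male 3 and -0.00062 without morphine male 6. The exact permutation *p* in males was 0.1, the smallest that 3 against 3 mice allow.

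The change of *Chrm3* in males exceeded that in females by 0.46 (log2, SE 0.18, past the DE rule, adjusted *p* = 0.985, edgeR's quasi-likelihood test). The direction held in each alternative fit, with the adjusted *p* between 0.101 and 1. The call was lost when saline female 4, saline female 5, morphine female 2, morphine male 4 or morphine male 6 was left out, and without the filter on low counts, and the difference stayed between 0.39 and 0.52 whichever mouse was left out. Without saline male 3 the log2FC in males was 0.28 (SE 0.13, adjusted *p* = 0.168, edgeR) and *Chrm3* was DE, in a fit in which 28.6% of all genes were. With scaling by total counts it was 0.37 and DE as well (4.44% of all genes).

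Some markers of other tissue were past the DE rule between treatments in the males, as were 2.99% of all genes. After adjustment, 0 genes passed 0.05 in that fit (edgeR), and both marker sums given here for males overlapped between the treatments. Of 5 markers of cerebellar granule cells, 3 were DE and higher in morphine males (*Gabra6*, log2FC 1.35; *Cbln3*, 1.08; *Fat2*, 0.81), and the sum of the 5 was 72.7 to 96.4 CPM in saline males and 80.3 to 142 CPM in morphine males. These 3 were also DE with the sexes combined (0.99, 0.77 and 0.39; 1.19% of all genes were). Of 4 markers of Purkinje cells, 0 were DE in males or with the sexes combined. The change of *Fat2* in males exceeded that in females by 0.89 (past the DE rule, adjusted *p* = 0.985, edgeR). Of 4 markers of choroid plexus, *Folr1* (1.06) and *Kl* (0.68) were DE and higher in morphine males, and the sum of the 4 was 257 to 517 CPM in saline males and 406 to 815 CPM in morphine males. In females 0 of the 5 granule cell markers and 0 of the 4 choroid plexus markers were DE, and the choroid plexus sum was 7.75 to 456 CPM in saline and 26.5 to 160 CPM in morphine females. All 4 choroid plexus markers had positive log2FC values in males (median 0.70) and negative ones in females (median -0.82). The exact permutation *p* was 0.1 to 0.3 in males and at least 0.6 in females. Among saline females the sum was 456 CPM in saline female 6 and 7.75 and 38.2 CPM in the others. Groups of 3 mice cannot show whether this sum and *Chrm3* are related, and their order differed between groups. The highest sum went with the lowest *Chrm3* in saline females (21.2 CPM) and morphine males (22.3 CPM). The highest sum went with the highest *Chrm3* in saline males (21.2 CPM). In morphine females the lowest sum went with the lowest *Chrm3* (18.3 CPM). For *Kl* the change in males exceeded that in females by 1.35 (past the DE rule, adjusted *p* = 0.985, edgeR), and for the other 3 markers this difference was not past the rule. Females lay below males in *Ttr* (log2FC -2.03) and *Folr1* (-1.92), both DE. The other markers that were DE were *Hoxb2* with the sexes combined (-0.47), *Slc6a3* in females (1.84), *Mobp* in males (-0.42), and *Hoxb8* (0.43), *Pcp2* (-1.18) and *Acta1* (-1.78) in females against males. The part of these tissues in the values of *Chrm3*, and in the differences between the sexes given below, was not tested.

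*Chrm1*, the Gq-coupled muscarinic gene best known from the forebrain (chr19:8663789-8683587, plus strand), was the lowest of the 10 genes per kb of exon. Its level, not divided by length, ranged from 0.738 to 2.33 CPM, and both ends of that range were morphine females. The log2FC was 0.19 with the sexes combined (95% interval -0.32 to 0.70), 0.11 in females and 0.24 in males. Single mice moved these values. The combined value was 0.03 without morphine female 2, 0.33 without morphine female 1, 0.091 without saline male 3 and 0.13 without morphine male 6. The female value was -0.29 without morphine female 2 and 0.46 without morphine female 1, and the male value was 0.10 without saline male 3 and 0.097 without morphine male 6. The combined interval holds a rise of more than 1.5-fold, so at 24 to 81 counts such a rise was not excluded. About 5.07% of its exon bases overlap *Gm22820*, a small RNA gene on the other strand.

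*Chrm2*, the Gi-coupled receptor gene of cholinergic neurons and of the vagal control of the heart, lies on chr6:36388084-36528414 (plus strand) and had 2232 to 3963 counts. Its level was 97.8, 84.6 and 89.8 CPM in saline females and 80.7, 84.4 and 81.9 CPM in morphine females. All 3 morphine females lay below the saline females, the nearest pair being 84.4 and 84.6 CPM. The log2FC in females was -0.15 (SE 0.088, 95% interval -0.34 to 0.05, adjusted *p* = 1, edgeR), with an exact permutation *p* of 0.1, the smallest possible. Saline males held 72.9, 67.2 and 121 CPM and morphine males 87.2, 80.6 and 76.5 CPM. The saline males thus contained both the lowest and the highest value of the 12 mice. The male log2FC of -0.11 (SE 0.24) became 0.25 without saline male 3, and the change in males minus that in females went from 0.05 to 0.36 (adjusted *p* = 0.0968, edgeR), past the DE rule in a fit in which 24.1% of all genes were. That difference was 0.098 without morphine male 6. *Chrm2* made up 73.1 ± 3.10% of the summed level per kb of the 5 muscarinic genes in morphine mice and 74.5 ± 5.12% in saline mice (SD, n = 6; two-sided exact permutation *p* = 0.775).

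*Chrm4*, the other Gi-coupled member, known for its part in striatal dopamine signaling, lies on chr2:91927249-91928688 (plus strand). Its annotated model is 1 exon of 1440 bases that holds little beyond the coding sequence of 1437 bases. Its level was 0.932, 0.456 and 0.651 CPM in saline females and 0.922, 0.461 and 0.734 CPM in morphine females. It was 2.06, 1.36 and 0.276 CPM in saline males and 1.01, 0.951 and 1.33 CPM in morphine males. The treatments overlapped in both sexes, and the saline males again held the highest and the lowest mouse. The lowest, saline male 3, rested on 9 counts (exact 95% Poisson interval 4.12 to 17.1, counting error only). The log2FC was -0.06 with the sexes combined (95% interval -0.85 to 0.74), -0.29 without saline male 3 and -0.12 without morphine male 6. Females lay below males by 0.74 (log2, SE 0.37, adjusted *p* = 0.734, edgeR), at 0.693 ± 0.211 against 1.16 ± 0.586 CPM (SD, n = 6; two-sided exact permutation *p* = 0.235). This difference was -0.97 without saline male 3 (adjusted *p* = 0.0542, edgeR), where 20.9% of all genes were DE, -0.88 and DE without morphine female 1 (4.8% of all genes), -0.68 without morphine male 6, -0.75 and DE without the filter on low counts (6.19%), and -0.41 (SE 0.27) with offsets for GC content. Over the alternatives its adjusted *p* ran from 0.0542 to 1 (edgeR and DESeq2).

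*Chrna4* and *Chrnb2* encode the subunits that together form the high-affinity nicotine binding receptor of the brain. *Chrna4* (chr2:181018380-181043546, minus strand) was at 74.7, 57.8 and 53.2 CPM in saline females, 61.6, 59.9 and 75.6 CPM in morphine females, 77.1, 79.4 and 52.8 CPM in saline males and 76.6, 62.6 and 78.3 CPM in morphine males. *Chrnb2* (chr3:89746195-89764632, minus strand) was at 70.6, 65.5 and 61.0 CPM, 69.2, 66.2 and 74.1 CPM, 75.0, 70.1 and 55.2 CPM, and 79.2, 68.5 and 79.8 CPM in the same order of groups. Both genes were lowest in saline male 3, and the treatments overlapped in each sex. The log2FC with the sexes combined was 0.08 for *Chrna4* (95% interval -0.18 to 0.34) and 0.15 for *Chrnb2* (-0.04 to 0.33; adjusted *p* = 1, edgeR). For *Chrnb2* it was 0.13 (SE 0.059, adjusted *p* = 1, edgeR) with offsets for GC content, below the fold threshold, and 0.07 without saline male 3. For *Chrna4* it was -0.0045 without saline male 3.

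The subunit genes *Chrna4* and *Chrnb2* rose and fell together over the mice. Pearson's *r* of their log2 CPM was 0.88 and Spearman's rho 0.881 over the 12 libraries, and *r* was 0.865 without saline male 3 and 0.798 without the 2 mice farthest from the median of *Chrna4*. The ratio of *Chrna4* to *Chrnb2* per kb stayed between 1.46 and 1.89, at 1.58 ± 0.0851 in morphine and 1.65 ± 0.172 in saline mice (SD, n = 6; two-sided exact permutation *p* = 0.38). A share of 16.3% of the *Chrnb2* exon bases (1365 bases) is shared with *Adar*, the RNA-editing adenosine deaminase gene on the opposite strand, which was at 107 ± 15.7 CPM (SD, n = 12) and had an *r* of 0.858 with *Chrnb2*. How the deposited counting treated strand is not given in the sources used here, so reads from these bases may have been left out or assigned to either gene.

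*Chrna7* (chr7:63098692-63212569, minus strand) was not DE with treatment, and its treatment groups overlapped in both sexes. Its level was 8.25, 6.05 and 8.24 CPM in saline females and 8.91, 9.11 and 7.27 CPM in morphine females, and 11.1, 8.64 and 9.16 CPM in saline males and 8.98, 9.25 and 9.36 CPM in morphine males. The log2FC was 0.06 with the sexes combined (95% interval -0.20 to 0.32). Females lay at 7.97 ± 1.14 CPM and males at 9.42 ± 0.870 CPM (SD, n = 6), and the ranges overlapped, since 2 morphine females at 8.91 and 9.11 CPM exceeded saline male 2. The two-sided exact permutation *p*, with sex permuted within treatment, was 0.01, whereas edgeR's log2FC of -0.23 (SE 0.12) was not DE and had an adjusted *p* of 0.734 over all genes. It was -0.24 without morphine male 6, -0.29 and DE without morphine female 1, and -0.32 (SE 0.13) and DE with offsets for GC content, with adjusted *p* = 0.755 and 0.911 (edgeR) and 4.8% and 2.92% of all genes DE. Over all alternatives the adjusted *p* ran from 0.187 to 1 (edgeR and DESeq2).

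*Chrna5*, *Chrna3* and *Chrnb4*, the subunit genes of ganglionic and habenular nicotinic receptors, lie side by side on chromosome 9. *Chrna5* occupies chr9:54980880-55007779 on the plus strand, *Chrna3* follows on the minus strand after 2331 bases (chr9:55010111-55026562), and *Chrnb4* after a further 1591 bases (chr9:55028154-55048779, minus strand). *Chrna3* ranged from 4.40 to 7.30 CPM, with a log2FC of 0.10 with the sexes combined (95% interval -0.20 to 0.40). *Chrna5* ranged from 0.831 to 2.39 CPM, with a log2FC of 0.15 (-0.36 to 0.66). The highest values of both genes were in morphine female 3. Without that mouse the log2FC in females turned from 0.04 to -0.41 for *Chrna5* and from 0.18 to -0.05 for *Chrna3*.

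*Chrnb4* was at 1.54, 1.09 and 1.33 CPM in saline females, 0.861, 0.692 and 1.39 CPM in morphine females, 1.34, 0.897 and 1.01 CPM in saline males and 0.832, 1.77 and 1.71 CPM in morphine males. In females, 2 of 3 morphine mice lay below all saline mice, and in males 2 of 3 lay above them. The log2FC was -0.45 in females (SE 0.33) and 0.40 in males (SE 0.35), and the change in males minus that in females was 0.87 (SE 0.49, 95% interval -0.20 to 1.93, adjusted *p* = 0.985, edgeR). The male value was 0.25 without morphine male 6. The difference passed the DE rule without morphine female 3 (1.20; 1.76% of all genes) or without morphine male 4 (1.14; 1.8%), and the female change did so without morphine female 3 (-0.78; 1.52%). Over the 12 libraries *r* was 0.044 for *Chrna3* with *Chrnb4*, 0.339 for *Chrna3* with *Chrna5* and 0.512 for *Chrna5* with *Chrnb4*. At these counts a low *r* gives no evidence that the neighbours vary apart.

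**Figure D3:**
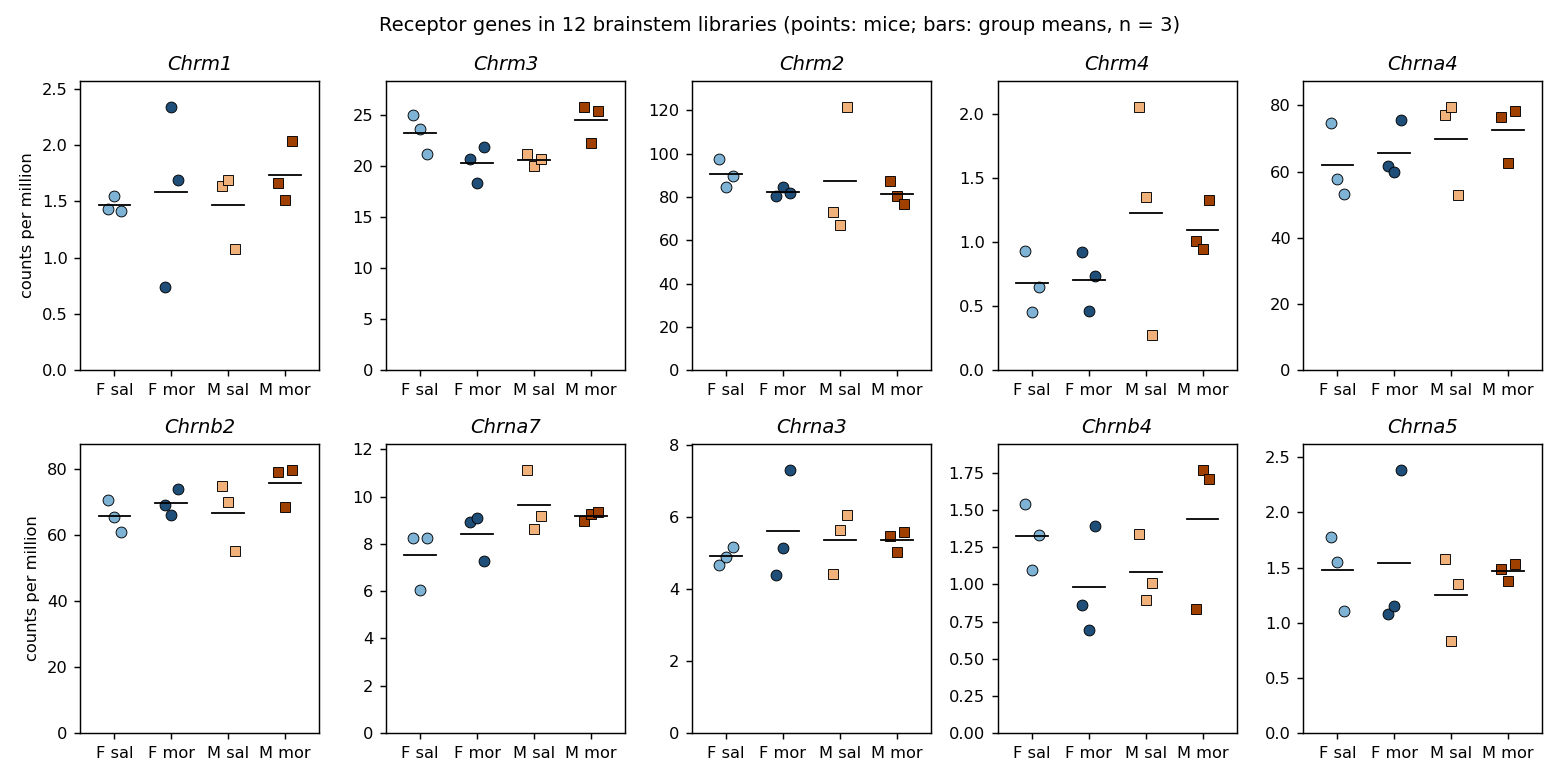
Level of each receptor gene in CPM by sex and treatment (F, female; M, male; sal, saline; mor, morphine), with 1 point per mouse and a bar at the mean of 3. Morphine males lie above saline males for *Chrm3*, morphine females below saline females for *Chrm2*, and the saline males spread widest for *Chrm2* and *Chrm4*.

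Part of the variation between mice followed base composition. Over the 12 libraries, *Chrm2*, whose longest transcript has 41.6% GC, had an *r* of -0.835 between its log2 CPM and the GC slope of the library (Spearman's rho -0.727). *Chrm4* (57% GC), *Chrna4* (55.7%) and *Chrnb2* (53.1%) had *r* of 0.867, 0.869 and 0.735 (rho 0.867, 0.965 and 0.839). Without the 2 libraries farthest from the median slope these were -0.617 for *Chrm2*, 0.83 for *Chrm4*, 0.837 for *Chrna4* and 0.785 for *Chrnb2*. For the other 6 genes *r* lay between -0.10 and 0.37. The tested genes had a median of 49.1% GC, with quartiles at 44.4% and 54%, and across these genes the *r* with the slope itself correlated with GC content at 0.758 (genes are not independent replicates). The slope is computed from the same libraries as the levels, so these values describe how the genes moved with the bulk of genes of like composition.

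After the slope was regressed out, *r* for *Chrna4* with *Chrnb2* was 0.719, the highest of all pairs of receptor genes. Close to it were *Chrna4* with *Chrna5* (0.676), *Chrm3* with *Chrnb2* (0.67) and *Chrm3* with *Chrna4* (0.667). The lowest was *Chrm4* with *Chrna3* (-0.449). For *Chrm4* with *Chrna4*, *r* went from 0.796 to 0.171, and for *Chrm2* with *Chrm4* from -0.754 to -0.108. Offsets for GC content narrowed the SE of the sex-combined log2FC from 0.13 to 0.08 for *Chrm2*, from 0.37 to 0.27 for *Chrm4*, from 0.12 to 0.09 for *Chrna4* and from 0.086 to 0.059 for *Chrnb2*. Of the 10 genes, 0 were DE with the sexes combined under these offsets (1.73% of all genes were). *Chrm3* kept its difference between the sexes at 0.39 (SE 0.16, past the DE rule as were 6.15% of all genes, adjusted *p* = 0.745, edgeR).

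**Figure D4:**
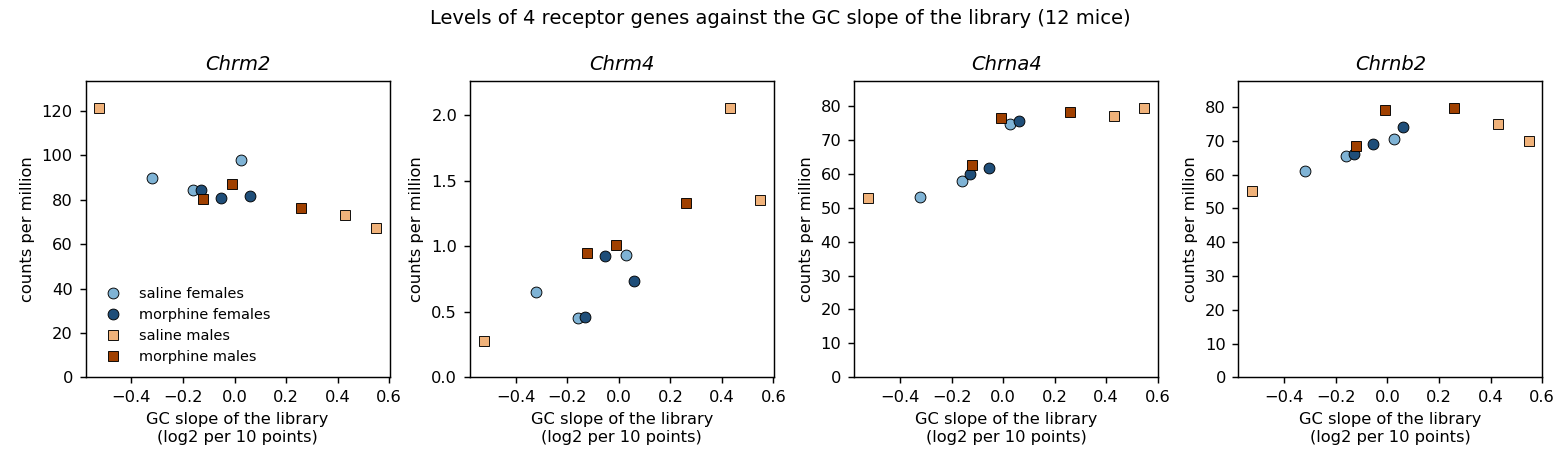
Level of *Chrm2*, *Chrm4*, *Chrna4* and *Chrnb2* in CPM against the GC slope of the library (log2 per 10 points of GC content), 1 point per mouse. *Chrm2* falls from 121 CPM in saline male 3, at a slope of -0.525, to 67.2 CPM in saline male 2, at 0.548, and the other 3 genes are lowest in saline male 3.

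The promoters of these 4 genes are shown because the genes moved with the GC slope, together or in opposition, over the mice. Whether their promoters had a part in that movement was not tested. Each line gives 300 bases of the gene's own strand from RefSeq on GRCm38.p6, from 250 bases before the transcript start to 50 after it, with each GC box (GGGCGG on either strand, overlaps allowed), the binding motif of Sp1, in capitals. The windows are chr6:36387834-36388133 for *Chrm2*, chr2:91921939-91922238 for *Chrm4*, chr2:181039128-181039427 for *Chrna4* and chr3:89764583-89764882 for *Chrnb2*.
Chrm2: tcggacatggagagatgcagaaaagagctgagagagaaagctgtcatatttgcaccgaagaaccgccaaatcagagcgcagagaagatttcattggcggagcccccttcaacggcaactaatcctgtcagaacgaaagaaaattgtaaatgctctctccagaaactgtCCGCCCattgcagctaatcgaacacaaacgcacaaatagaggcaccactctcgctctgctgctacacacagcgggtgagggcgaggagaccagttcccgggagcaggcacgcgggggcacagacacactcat
Chrm4: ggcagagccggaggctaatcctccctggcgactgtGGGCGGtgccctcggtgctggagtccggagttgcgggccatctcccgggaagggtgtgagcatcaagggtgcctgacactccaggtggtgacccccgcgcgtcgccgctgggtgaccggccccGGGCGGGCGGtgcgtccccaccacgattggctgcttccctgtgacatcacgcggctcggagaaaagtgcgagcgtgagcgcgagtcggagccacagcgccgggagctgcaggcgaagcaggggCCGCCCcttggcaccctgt
Chrna4: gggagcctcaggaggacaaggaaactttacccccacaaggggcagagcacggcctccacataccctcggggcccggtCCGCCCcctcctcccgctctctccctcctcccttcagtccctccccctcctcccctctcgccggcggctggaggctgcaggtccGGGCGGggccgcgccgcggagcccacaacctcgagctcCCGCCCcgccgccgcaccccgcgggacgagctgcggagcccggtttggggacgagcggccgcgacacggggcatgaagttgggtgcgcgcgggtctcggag
Chrnb2: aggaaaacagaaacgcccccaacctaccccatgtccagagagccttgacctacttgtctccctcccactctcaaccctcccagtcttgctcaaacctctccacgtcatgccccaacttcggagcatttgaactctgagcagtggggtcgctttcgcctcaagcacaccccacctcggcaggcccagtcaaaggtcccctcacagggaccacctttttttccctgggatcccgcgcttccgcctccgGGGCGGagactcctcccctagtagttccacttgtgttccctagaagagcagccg

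The *Chrna4* and *Chrm4* windows had 74.3% and 70.7% GC with 33 and 30 CpG dinucleotides, and held 3 and 4 GC boxes. The *Chrnb2* window had 59% GC, 12 CpG and 1 GC box, and the *Chrm2* window 52.7% GC, 16 CpG and 1 GC box. Of all promoter windows of this length, 35.7% held a GC box and the median was 52.7% GC. RefSeq windows matched 9 of the 10 receptor genes by symbol, *Chrna5* with 2 windows, and 7 of these 10 windows held a GC box. The RefSeq start of *Chrm4* lies 5060 bases before the GENCODE M21 model that was matched to the count table, so reads from such an upstream exon are outside that model. The RefSeq start of *Chrna4* lies 4369 bases after the start of its GENCODE M21 model, so the window printed for it lies inside that model. For *Chrm2* and *Chrnb2* the starts were the same.

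Few of the other genes of the acetylcholine pathway were called, and few of all genes tested were. The shares of all genes were 1.19% with the sexes combined, 1.81% in females and 2.99% in males. They were 2.94% for the difference of the changes and 3.94% between the sexes. At such shares, short lists hold few calls, so the counts here and in the next paragraph are no result about the pathway. Of 11 other acetylcholine receptor genes, 7 passed the filter, and *Chrna9*, *Chrna10*, *Chrnd* and *Chrng* had at most 5 counts in any library. *Chrnb1* (0.983 ± 0.196), *Chrna2* (0.809 ± 0.145) and *Chrna6* (0.645 ± 0.265 CPM per kb, SD, n = 12) were the highest of them, within the range of *Chrna3* and *Chrm4*. With the sexes combined, 1 of the 7 was DE, *Chrne*, the adult muscle subunit gene, which fell (log2FC -0.60, SE 0.28, adjusted *p* = 1, edgeR) at 6 to 25 counts, and 0 of 7 were DE in females, in males, between the sexes or in the difference of the changes.

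Of 7 genes of acetylcholine synthesis, transport and breakdown, 0 were DE with treatment in any of the 3 comparisons. The highest per kb were *Ache*, the esterase, at 22.9 ± 8.14 CPM per kb with a log2FC of -0.07, *Slc5a7*, the choline transporter, at 11.3 ± 2.12 with -0.01, and *Prima1*, the membrane anchor of the esterase, at 7.67 ± 2.21 with -0.27 (sexes combined). *Chat*, the synthetic enzyme, named for its role after its values were seen, was at 2.11 ± 0.402 CPM per kb with a log2FC of 0.003. *Colq*, the collagen tail of the esterase, was lower in females than in males (log2FC -0.47, SE 0.17, DE, adjusted *p* = 0.734, edgeR). Of 9 nicotinic receptor chaperone and Ly6 modulator genes, 8 passed the filter and 0 were DE in any comparison, among them *Lynx1*, a membrane-tethered modulator of nicotinic receptors (129 ± 25.9 CPM per kb), *Tmem35a*, a chaperone of the *Chrna7* product (40.0 ± 4.74), and *Ly6e* (20.0 ± 3.73). Of 11 G protein and phospholipase C genes through which muscarinic receptors signal, 0 were DE in any comparison, including *Gnai1* (63.8 ± 9.26 CPM per kb), *Gnai2* (36.9 ± 11.2) and *Gnao1* (36.4 ± 3.86). The medians of the 4 lists with the sexes combined were 0.13, -0.07, -0.04 and -0.05, beside -0.02 over all genes.

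The genes whose log2 CPM was most like that of a receptor gene over the 12 libraries were, for *Chrm2*, *Prkacb*, *Usp14* and *Irs4* (*r* 0.969 to 0.96), and for *Chrna4*, *Ppp2r1a*, *Ap2a2* and *Ergic1* (0.971 to 0.97). For *Chrnb2* they were *Mtmr3*, *Rasgrf1* and *Nptxr* (0.949 to 0.929), and for *Chrm4* *Rap1gap2*, *Gm5617* and *C1qtnf12* (0.965 to 0.957). *Chrm3* was most like *St8sia2*, *Mgat5* and *Gm7457* (0.89 to 0.834), *Chrna3* like *Dner*, *Magee1* and *A730056A06Rik* (0.94 to 0.775), and *Chrna5* like *Lrrfip2*, *Pnmal1* and *Scg2* (0.914 to 0.876). *Chrm1* was most like *Trappc11*, *Ube4b* and *Plpbp* (0.908 to 0.851), *Chrna7* like *Gm43912*, *Clic3* and *Sptbn1* (0.834 to 0.816), and *Chrnb4* like *Etl4*, *Ifit1bl2* and *Zfp108* (0.816 to 0.792). These are the highest of 18608 genes over 12 libraries that share depth and base composition, and they are given as a description.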

How the data were processed

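Total RNA of each brainstem was made into a poly-A library and sequenced in 100 bp single-end reads. The authors deposited a table of raw counts per gene symbol for all 12 libraries, and the submitters' processing notes name Trimmomatic, STAR, Subread featureCounts and mm10, while the treatment of strand and of multi-mapping reads is not given in the sources used here. Counts were fitted with edgeR 4.0.16 in R 4.3.3 (TMM factors, filterByExpr, quasi-likelihood test, Benjamini-Hochberg adjustment over all genes tested), and DESeq2 1.42.0 was an alternative. The deposited counts were also expressed as CPM, and as CPM per kb of merged GENCODE M21 exons to compare genes. Single values were compared over mice by exact permutation within the other factor. Log2 CPM used a prior count of 2. The receptor genes, gene lists and markers were chosen with earlier results of these data known, and DE thresholds followed the study. All receptor genes are named, with genes of the lists that were DE, the 3 highest per kb of each pathway list, and the 3 genes most like each receptor gene. *p*-values measure the spread between mice, whose litters are not labelled. The fits were run on simulated counts with known changes. These held no GC slope, outlying library or litter, so they do not show how the fits behave with those features. Intervals on counts cover counting error only.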

Additional observations from a re-analysis of the deposited data

Results flagged for a closer look

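*Chrna5* was at 2.39 CPM (65 counts) in morphine female 3, against 1.08 to 1.54 CPM in the other 5 morphine mice, a gap to its nearest neighbor of 0.649 of the range. In the same group of 6, *Chrna7* was at 7.27 CPM in morphine female 3, below the other 5 at 8.91 to 9.36 CPM, with a gap of 0.788 of the range. Such gaps can arise by chance among the 20 groups (10 genes in 2 treatments) that were examined. How often chance gives gaps of these sizes was not tested. Morphine female 3 also had the highest *Chrna3* of all mice (7.30 CPM). The dopamine transporter gene *Slc6a3* was at 3.82 CPM there, at 5.99 in saline male 1 and 6.79 in morphine male 6, and at most 0.754 in the other 9 libraries, and the sum of 5 markers of midbrain dopamine neurons was 15.2, 21.2 and 20.1 CPM in these 3 mice. *Chrna6*, a nicotinic subunit gene of those neurons and itself among these markers, was at 3.16, 2.89 and 2.95 CPM there. Their part in the values of *Chrna5* and *Chrna7* was not tested.

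The log2FC of *Chrm3* differed between the sexes, at 0.46 higher in males than in females (edgeR, past the DE rule, adjusted *p* = 0.985).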

How the results depend on the processing

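The receptor genes made 50 log2FC values (10 genes, 5 comparisons). Of 376 values from alternatives other than leaving out a mouse, 346 kept direction and side of the DE rule, 24 changed sign, 5 became DE and 1 lost its call, and each value that changed sign came from a gene that was not DE. For values that changed sign or call under an alternative tool, scaling or filter, the cause was not tested. Offsets for GC content, chosen after seeing the data, gave *Chrm4* 0.045 with the sexes combined, -0.064 in females, 0.14 in males and 0.20 for the difference of the changes, where *Chrm2* gave -0.0011 and *Chrna4* 0.13. They gave *Chrnb4* -0.018 with the sexes combined, and for females against males *Chrm1* 0.057, *Chrm2* -0.029, *Chrna4* 0.043 and *Chrnb2* 0.043. For *Chrnb4* with the sexes combined (0.003), DESeq2 gave -0.00503, its size factors -0.00508 and no filter -0.00736. For *Chrna3* in males (-0.01), DESeq2 gave 0.00773, its size factors 0.00761, the fit of all 12 mice 0.014 and scaling by total counts 0.11. Scaling by total counts also gave *Chrm2* 0.015 and *Chrna7* 0.049 in males, and *Chrna4* 0.088 for the difference of the changes, where a minimum of 10 counts gave 0.00286.

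The count of DE receptor genes kept its value of 0 with the sexes combined under all alternatives (0.937% to 2.42% of all genes over the fits). In females it was 0 to 1 when a mouse was left out (1.12% to 7.95% of all genes). In males it was 1 with scaling by total counts (4.44%) and 0 to 1 when a mouse was left out (1.36% to 28.6%). For the difference of the changes it was 0 without a filter (4.44%) and 0 to 2 when a mouse was left out (1.49% to 24.1%). For females against males it was 1 with edgeR's exactTest (6.44%), DESeq2 (5.86%), no filter (6.19%) or GC offsets (2.92%). There it was 0 to 2 when a mouse was left out (1.74% to 20.9%). Over all genes, the DE counts of 543 in males, 559 for the difference of the changes, 733 for females against males and 221 with the sexes combined became 5341, 4695, 3947 and 458 without saline male 3, and 985, 1665, 2321 and 754 without a filter. In females 328 became 1094 without a filter, 1482 without saline female 4 and 218 in the fit of all 12 mice. GC offsets gave 1344 in males and 1170 for the difference of the changes, and exactTest gave 1199 for females against males. Leaving out mice other than saline male 3 gave 253 at the lowest in males (without morphine male 4), 330 for females against males (saline male 2), 290 (saline female 6) and 952 (saline female 4) for the difference of the changes, and 417 with the sexes combined (saline female 6).

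Leaving out 1 mouse at a time changed the sign of 32 of the 50 values. With the sexes combined it ran from -0.19 to 0.013 for *Chrm2*, from -0.0068 to 0.093 for *Chrm3*, from -0.29 to 0.22 for *Chrm4*, from -0.029 to 0.14 for *Chrna3*, from -0.0045 to 0.15 for *Chrna4*, from -0.051 to 0.24 for *Chrna5*, from -0.012 to 0.12 for *Chrna7*, from -0.12 to 0.14 for *Chrnb4*. In females it ran from -0.29 to 0.46 for *Chrm1*, from -0.20 to 0.32 for *Chrm4*, from -0.049 to 0.33 for *Chrna3*, from -0.033 to 0.23 for *Chrna4*, from -0.41 to 0.25 for *Chrna5*. In males it ran from -0.28 to 0.25 for *Chrm2*, from -0.59 to 0.39 for *Chrm4*, from -0.14 to 0.13 for *Chrna3*, from -0.075 to 0.20 for *Chrna4*, from -0.017 to 0.42 for *Chrna5*, from -0.16 to 0.035 for *Chrna7*. For the change in males minus that in females it ran from -0.23 to 0.54 for *Chrm1*, from -0.11 to 0.36 for *Chrm2*, from -0.67 to 0.37 for *Chrm4*, from -0.35 to 0.056 for *Chrna3*, from -0.20 to 0.10 for *Chrna4*, from -0.042 to 0.66 for *Chrna5*, from -0.023 to 0.21 for *Chrnb2*. For females against males it ran from -0.22 to 0.079 for *Chrm1*, from -0.032 to 0.16 for *Chrm2*, from -0.084 to 0.020 for *Chrm3*, from -0.16 to 0.0088 for *Chrna3*, from -0.050 to 0.25 for *Chrna5*, from -0.23 to 0.022 for *Chrnb4*.

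Replicate numbers showed no clear pairing of the mice. Mice of the same number always differed in sex and litters are not labelled, so the values cannot exclude a shared litter. Deviations from the group means correlated at -0.356 to 0.18 between mice of the same number, and 1 of 12 libraries correlated best with its own number. With the number as a replicate block, 0 receptor genes were DE (0.978% of all genes), 182 genes were DE against 221, and *Chrm4* (0.069) and *Chrnb4* (-0.045) changed sign. Within 1 sex the treatments share no numbers, so no paired fit was made there.

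With 9 to 81 counts per library, *Chrm1*, *Chrm4*, *Chrna5* and *Chrnb4* have 95% intervals that reach beyond 0.5 on the log2 scale, up or down, in every comparison. Changes of that size in that direction were therefore not excluded.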
